A study of Bos taurus with 15 samples.

Results

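The 37 genes described here encode lysosomal hydrolases, lysosomal membrane proteins and a few of their regulators, and they were read in bovine (Bos taurus) blastocysts at day 7. They were chosen by name, as a list, with earlier results of these data known. All 37 were found among the 17259 genes of the deposited count table. By role they comprise 11 peptidases, 8 glycosidases, 3 sulfatases, 5 lipid hydrolases and activators, 4 membrane proteins, 4 genes of the proton pump, calcium channel and transcriptional regulator, and 2 secreted proteins. The study asked whether automated removal of the cumulus cells alters the transcriptome of the blastocyst. Poly(A) RNA was sequenced from 3 groups of 5 libraries. In the automatic group, zygotes were freed of cumulus cells by an automated procedure and then cultured in SOF medium (synthetic oviduct fluid) to day 7. The manual group was cultured in the same medium after cumulus removal by hand. The in vivo group was collected as day 7 blastocysts that had developed in the animal. The in vivo group therefore differs from both cultured groups in all of its development to day 7, not in denudation alone. The labels give neither breed nor donor. They leave unsaid if each library was made from a single blastocyst or from several, and if replicates stem from different cultures or donors. The p-values below therefore rest on the scatter among these particular libraries, some of which may be technical.

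Lysosomes are acidic, membrane-bound compartments in which proteins, glycans and lipids delivered by endocytosis and autophagy are broken down. The vacuolar ATPase pumps protons into the lumen, most soluble hydrolases are sent there by a mannose 6-phosphate tag, and heavily glycosylated membrane proteins such as LAMP1 and LAMP2 line the inner face of the membrane. The transcription factor TFEB binds the promoters of many lysosomal genes and raises their transcription when nutrients are scarce. In preimplantation embryos, autophagy and lysosomal breakdown of maternal proteins have been described in the mouse. The outer epithelium of the blastocyst, the trophectoderm, takes up proteins from its surroundings by endocytosis.

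Library totals ranged from 17.96 to 41.97 M estimated counts (1 M is 1e+06), and averaged 28.3 ± 5.67 M in automatic, 26.4 ± 4.83 M in manual and 31.4 ± 8.72 M in in vivo libraries (SD, n = 5 each). Only 6977 to 8547 genes reached 10 counts in automatic 2 and 4, in manual 2, and in in vivo 2 and 4, which are called low-detection libraries below. The remaining 10 libraries had 9900 to 12611 such genes. Mitochondrial transcripts of 9 genes made up 8.18% to 14.4% of counts in the low-detection libraries and 3.26% to 9.99% in the remaining ones. Of the 37 lysosomal genes, 23 to 32 reached 10 counts in the low-detection libraries and 33 to 37 in the others. Markers of the trophectoderm were abundant in every library, with a summed level of at least 6429.7 CPM over 13 genes. Macrophage and leukocyte markers summed to 1.92 to 21.5 CPM over 15 genes. Among them, PTPRC had 0 counts in every library, while C1QB and CD74 reached 10.2 and 10.5 CPM. CPM denotes counts per 1e+06 counts, taken on library sizes scaled by TMM (the trimmed mean of M-values).

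The lysosomal genes varied widely among blastocysts of 1 group. In all 15 libraries, 24 of the 37 genes had at least 1 count and 19 had 10 or more, among them LAMP1, LAMP2, CD63, CTSB, CTSD, CTSH, CTSL, PSAP and GM2A. Across the 5 libraries of a group, the coefficient of variation had a median over the 35 genes kept for testing of 69.7% in automatic, 74.5% in manual and 67.4% in in vivo libraries. The medians over all genes kept were 87.5%, 74.3% and 87.8% in the same order of groups. The 35 genes are those that passed the count filter. CTSS, a cathepsin of antigen-presenting cells, and GAA, the acid alpha-glucosidase that degrades glycogen, did not pass it. CTSS had 6, 0, 95, 0 and 0 counts in automatic libraries, 63, 0, 0, 0 and 30 in manual libraries and 0, 0, 64, 0 and 0 in in vivo libraries. GAA had 149, 3, 165, 0 and 0 counts in automatic libraries, 99, 0, 0, 0 and 0 in manual libraries and 0, 0, 253, 0 and 0 in in vivo libraries. Neither gene separated the groups. CTSS had 0 counts in most libraries of each group, and GAA in most manual and in vivo libraries.

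**Figure D1:**
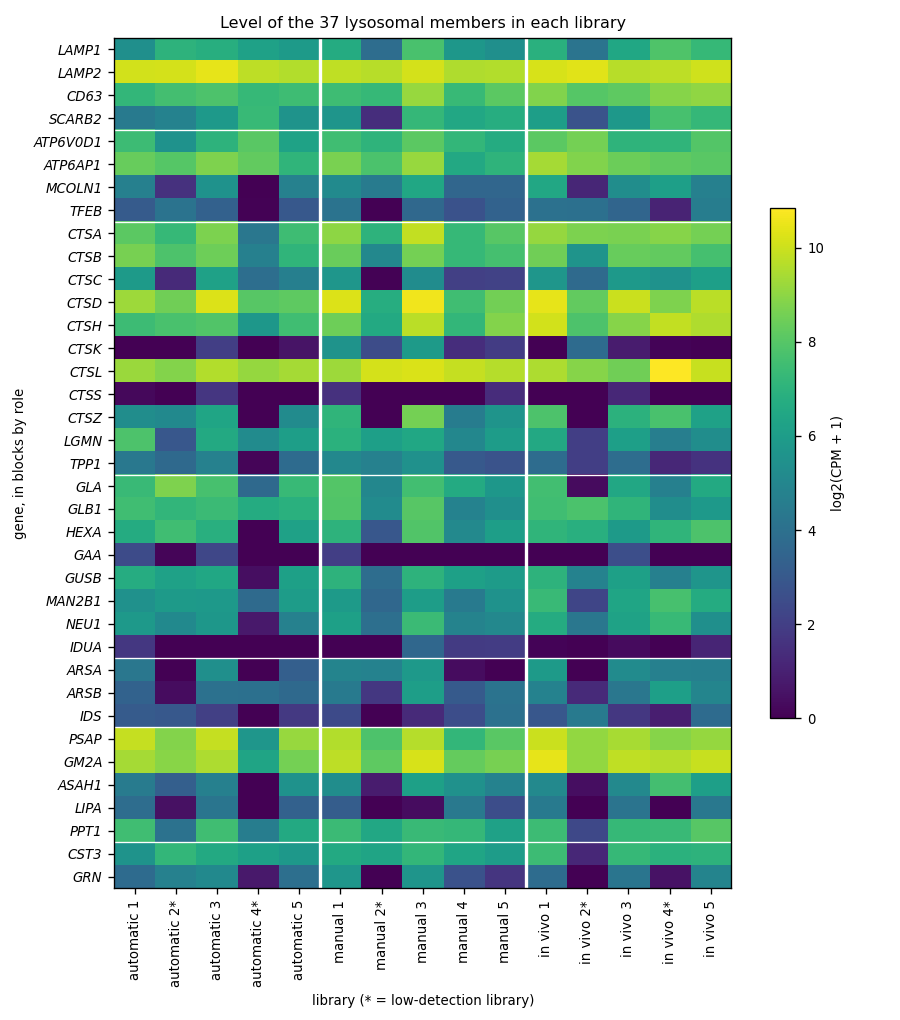
Heat map of the level of each of the 37 genes (rows, in blocks by role) in each of the 15 libraries (columns; automatic, manual, in vivo; an asterisk marks a low-detection library), as log2(CPM + 1). Dark cells gather in automatic 4, manual 2 and in vivo 2, and bright cells in manual 3. Rows are not scaled by transcript length, so genes should not be compared with each other.

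Many of these genes were high or low in the same libraries. The summed level of the 37 genes was 6833, 5333, 8446, 3157 and 4605 CPM in automatic libraries 1 to 5, and 8234, 3795, 12169.7, 3995 and 4821 CPM in manual libraries 1 to 5. In vivo libraries 1 to 5 had 11179, 5410.4, 7123, 8965 and 8504 CPM. The mean sums were 5675 ± 2038 CPM in automatic, 6603 ± 3589 CPM in manual and 8236 ± 2150 CPM in in vivo libraries (SD, n = 5 each), and the 3 ranges overlapped. Manual 3 was the highest manual library for 27 of the 35 tested genes (77.1%, against 24.4% of all genes kept), automatic 3 the highest automatic library for 18 (51.4%, against 21.2%), and in vivo 1 the highest in vivo library for 15 (42.9%, against 18.9%). The lowest libraries were automatic 4 for 20 genes (57.1%, against 31.9% of all genes), manual 2 for 21 (60.0%, against 32.8%) and in vivo 2 for 20 (57.1%, against 35.3%), and all of these are low-detection libraries.

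In cultured blastocysts as a whole, with the automatic and manual means averaged, set against in vivo blastocysts, no gene of the list changed past an adjusted p of 0.05 in edgeR's quasi-likelihood test. Of all 11578 genes tested, 2 passed (0.0173%). The smallest adjusted p in the list was 0.553, for CTSH. Among the 35 genes, 27 had a log2 fold change below 0, which is 77.1% of them against 51.8% of all genes tested, and their median was -0.51 against -0.04 over all genes. Many of these genes were high or low in the same libraries, so their signs are not independent, here or in the comparisons below. Their mean log2(CPM + 1) had a pooled SD of 1.04 among libraries of a group, which is wider than that median shift. Scaled by library size alone, the median over the 35 genes was -0.37 and that over all genes 0.10, with 26 of the 35 below 0. At an unadjusted p under 0.05, 3 of the 35 were lower (3.67% of all genes) and 0 were higher (2.46% of all genes): CTSH, CD63 and MAN2B1. DESeq2 and limma-voom also called 0 of the 35, where they called 87 and 15 of all 11578 genes. By role, the 4 membrane proteins, the 4 genes of the proton pump, channel and regulator, the 3 sulfatases and the 5 lipid hydrolases and activators all had fold changes below 0, with medians of -0.50, -0.62, -0.91 and -0.62. The 10 peptidases had 7 below 0 and a median of -0.29, the 7 glycosidases had 3 below 0 and a median of 0.05, and the secreted pair had 1 below 0 and a median of 0.16.

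CTSH, cathepsin H, is a cysteine protease that trims amino acids from the amino end of proteins. It had 172, 213, 238, 52.7 and 184 CPM in automatic libraries 1 to 5, 355, 94.2, 844, 144 and 454 CPM in manual libraries 1 to 5, and 1099.7, 226, 464, 927 and 753 CPM in in vivo libraries 1 to 5. In vivo 2 was far below the other in vivo libraries, and only manual 1, 3 and 5 and automatic 3 lay above it, so that 6 of the 10 cultured libraries lay below every in vivo one. The means were 172 ± 71.5 CPM in automatic, 378 ± 299.6 CPM in manual and 694 ± 352 CPM in in vivo libraries (SD, n = 5 each). Culture against in vivo gave a log2 fold change of -1.44 ± 0.46 (SE), with a 95% interval of -2.40 to -0.49 and an adjusted p of 0.553 in edgeR. It lay between -1.71 and -1.22 when any 1 library was left out, and at -1.38 ± 0.41 (edgeR, adjusted p = 0.375) once the 5 low-detection libraries were dropped. Limma-voom with sample quality weights was the only method run that put it past the threshold, at -1.54 with an adjusted p of 0.0332.

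CD63 is a tetraspanin of late endosomes, lysosomes and the vesicles shed from them. Automatic libraries 1 to 5 had 143, 195, 224, 154 and 180.1 CPM, manual libraries 179, 154, 577, 159 and 279 CPM, and in vivo libraries 437, 251, 284, 463 and 529 CPM. All 5 automatic libraries lay below the lowest in vivo library, 3 of the 5 manual libraries did so too, and manual 3 lay above every in vivo library. Culture against in vivo gave a log2 fold change of -0.84 ± 0.33 (SE), with a 95% interval of -1.52 to -0.15 and an adjusted p of 0.697 in edgeR.

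MAN2B1, the lysosomal alpha-mannosidase that trims mannose from glycoproteins, had 44.1, 59.7, 57.1, 12.6 and 62.0 CPM in automatic libraries 1 to 5. It had 59.4, 11.3, 64.9, 21.4 and 45.9 CPM in manual libraries and 162, 3.83, 81.4, 205 and 101 CPM in in vivo libraries. In vivo 2 was the lowest of all 15 libraries, and the other 4 in vivo libraries lay above all 10 cultured ones. Cultured blastocysts differed from in vivo ones by a log2 fold change of -1.34 ± 0.63 (SE), with a 95% interval of -2.66 to -0.03 and an adjusted p of 0.805 in edgeR. Without the low-detection libraries it was -1.17 ± 0.36 (edgeR, adjusted p = 0.403).

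GM2A, the activator protein that presents GM2 ganglioside to beta-hexosaminidase A, had 672, 487, 722, 80.8 and 381 CPM in automatic libraries, 859, 284, 1169, 307 and 397 CPM in manual libraries and 1403, 542, 893, 789 and 990.1 CPM in in vivo libraries. Of the 10 cultured libraries, 6 lay below the lowest in vivo value, that of in vivo 2, and none reached in vivo 1. Set against in vivo, culture gave a log2 fold change of -0.80 ± 0.42 (SE), with a 95% interval of -1.67 to 0.08 and an adjusted p of 0.885 in edgeR.

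Of the 8 genes with a fold change above 0, TPP1, a peptidase that removes tripeptides from the amino end of proteins, had the smallest p-value. It had 19.3, 11.9, 25.9, 0.111 and 12.9 CPM in automatic libraries, 32.0, 26.0, 44.1, 7.26 and 5.79 CPM in manual libraries and 13.4, 2.98, 13.6, 1.33 and 2.02 CPM in in vivo libraries. Of the cultured libraries, 5 lay above every in vivo one, and the lowest of all was the low-detection library automatic 4. Culture against in vivo gave a log2 fold change of 1.43 ± 1.06 (SE), with a 95% interval of -0.79 to 3.65 and an adjusted p of 0.9993 in edgeR, so its interval holds both directions.

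Most, though not all, markers of the trophectoderm lay on the same side as CTSH, CD63, MAN2B1 and GM2A. Of 13 trophectoderm markers tested, 9 had a log2 fold change below 0 in culture against in vivo and 4 above 0, with a median of -0.91. At an unadjusted p under 0.05, 5 were lower (3.67% of all genes) and 1 was higher (2.46%). Their summed level was 6429.7 to 14849.5 CPM in automatic, 8943 to 35345 CPM in manual and 14585 to 32467 CPM in in vivo libraries. KRT8 and KRT18, with medians of 7750 and 4052 CPM over the 15 libraries, weighed most in these sums. The transcription factors of the list were mixed. Medians in automatic, manual and in vivo libraries were 272, 148 and 128 CPM for TFAP2C and 74.9, 74.2 and 55.7 CPM for TEAD4. For GATA3 they were 70.3, 81.6 and 52.7 CPM, and for GATA2 26.35, 44.5 and 82.3 CPM. Manual 3 had the highest sum of all 15 libraries, and in vivo 1 and in vivo 4 followed it. These are also 3 of the 4 libraries highest in CTSH, and likewise in CD63. MAN2B1 and GM2A did not follow this order. For MAN2B1, manual 3 (64.9 CPM) lay below in vivo 1, 3, 4 and 5. For GM2A, in vivo 4 (789 CPM) lay below in vivo 3 and 5 (893 and 990.1 CPM). Hypoblast markers summed to 2411 to 6479 CPM in automatic, 2820.1 to 6491 CPM in manual and 4013 to 7977 CPM in in vivo libraries over 12 genes. Of 9 tested, 8 were below 0, with a median of -0.26. SOX17 and FOXA2 stayed under 1 CPM in every library and GATA4 reached 1.57 CPM, while FN1 and LRP2 reached 4871 and 4118 CPM. At an unadjusted p under 0.05, 1 of the 9 hypoblast markers was lower (3.67% of all genes; edgeR, adjusted p = 0.0676) and 0 were higher (2.46%). Markers of the inner cell mass and epiblast had 3 of 9 below 0, a median of 0.25 and sums of 668 to 2739 CPM in automatic, 606 to 3179 CPM in manual and 753 to 3913 CPM in in vivo libraries. FGF4, which is in these sums, stayed under 1 CPM in every library. Of the 9 tested, 2 were lower at an unadjusted p under 0.05 (3.67% of all genes; edgeR, smallest adjusted p = 0.191), and 0 were higher (2.46%). Both had all 10 cultured libraries below all in vivo ones, as did 0.276% of all genes. In whole blastocysts, fewer cells of a type and less RNA per cell cannot be told apart. The part of lineage composition in the lysosomal fold changes was not tested.

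Macrophages are rich in lysosomes. Their markers, with other leukocyte markers, summed to 6.34 to 12.6 CPM in automatic, 1.92 to 20.9 CPM in manual and 13.8 to 21.5 CPM in in vivo libraries over 15 genes. PTPRC had 0 counts in all libraries, and CD163, ITGAM and C1QA stayed under 1 CPM in every library. CD74, C1QB, ITGB2 and CSF1R reached 10.5, 10.2, 9.79 and 8.72 CPM. Of 7 such markers tested, 6 had a fold change below 0, with a median of -0.92. Cumulus and granulosa markers summed to 21.7 to 42.9 CPM in automatic, 35.6 to 136 CPM in manual and 18.0 to 223 CPM in in vivo libraries over 12 genes, with FOXL2 at 0 throughout. STAR, CYP19A1 and FSHR reached 179, 53.0 and 42.7 CPM. HAS2, PTX3, TNFAIP6, GREM1 and VCAN reached only 1.57, 0.0632, 3.44, 4.04 and 4.18 CPM. Of 5 cumulus and granulosa markers tested, all 5 were below 0 in culture against in vivo, with a median of -0.78. Red blood cell markers summed to 0.221 to 259 CPM in automatic, 17.2 to 78.1 CPM in manual and 0.536 to 48.7 CPM in in vivo libraries over 4 genes, with SLC4A1 at 0 throughout. The part of these cell types in the lysosomal values was not tested.

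**Figure D2:**
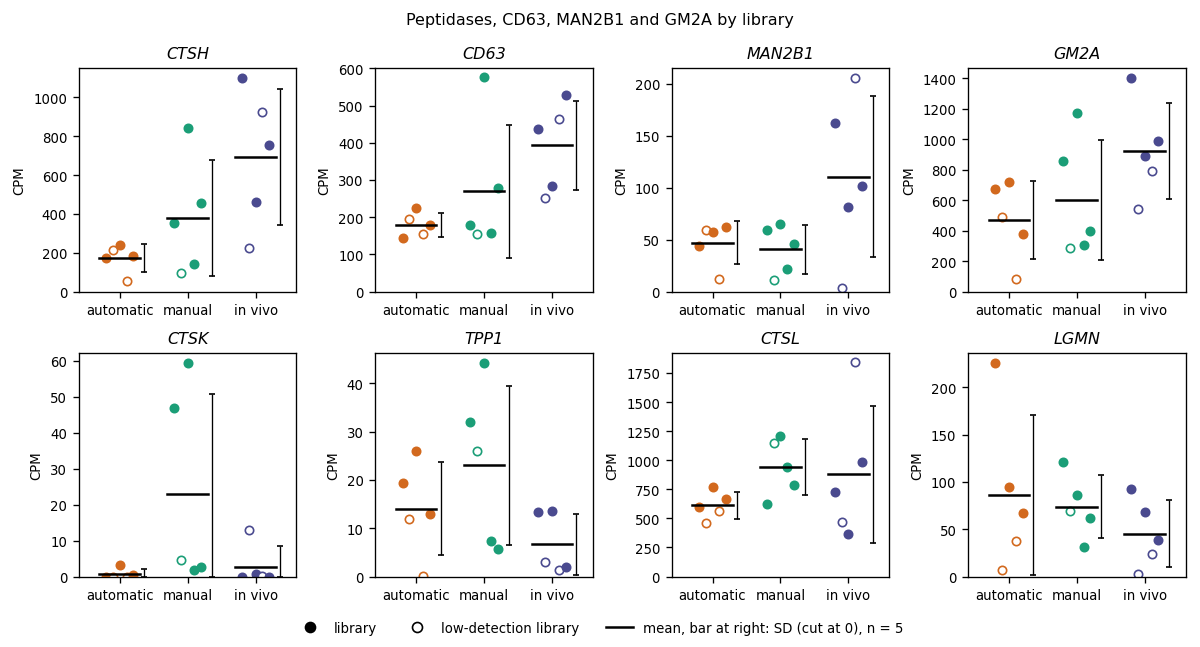
CPM of 8 genes in each library of the automatic, manual and in vivo groups. Each point is a library, open points are low-detection libraries, the line is the mean and the bar the SD (n = 5, cut at 0). All 5 automatic libraries lie below all in vivo libraries for CD63, and CTSK is highest in manual 1 and manual 3, at 46.9 and 59.3 CPM.

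The automatic and the manual group were also each set against the in vivo group. These comparisons share the in vivo libraries, so their values stand side by side and are not independent of each other. In automatic against in vivo, 0 of the 35 genes were called by edgeR, as against 2 of all genes (0.0173%), and the smallest adjusted p in the list was 0.511. Of the 35, 27 had a fold change below 0, against 52.4% of all genes, with a median of -0.56 against -0.06. CTSH, at -2.01 ± 0.57 (SE; 95% interval -3.20 to -0.83; edgeR, adjusted p = 0.511), and CD63, at -1.13 ± 0.39 (95% interval -1.95 to -0.31; adjusted p = 0.693), had an unadjusted p under 0.05 (2.7% of all genes on the lower side), and none did so on the higher side (2.66%). CD63 was the 1 gene of the list whose automatic libraries all lay below all in vivo libraries (1.16% of all genes). For CTSH, 4 of the 5 did. GM2A came next by p, at -0.98 ± 0.50 (SE; 95% interval -2.03 to 0.07; edgeR, adjusted p = 0.958). Of the 13 trophectoderm markers, 9 were below 0 in this comparison with a median of -1.22, and 5 were lower and 1 higher at an unadjusted p under 0.05. The automatic libraries all lay below all in vivo libraries for 3 of the 13. LRP2, which encodes the endocytic receptor megalin and stood in the hypoblast list, was 1 of the 2 genes called (edgeR, adjusted p = 0.0294). It had 612 to 1005 CPM in automatic libraries and 2261 to 4118 CPM in in vivo libraries. The rest of that list did not all follow LRP2. Of the 9 hypoblast markers tested, 5 were below 0 and 4 above 0 in this comparison, with a median of -0.20. Medians in automatic and in vivo libraries were 198 and 172 CPM for GATA6 and 2188 and 2038 CPM for FN1. The part of these lineages in the automatic fold changes was not tested.

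In manual against in vivo, edgeR called 0 of the 35 genes and 0 of all genes (0%). At an unadjusted p under 0.05, 0 of the 35 passed in either direction, against 1.5% of all genes on the lower side and 1.88% on the higher side. DESeq2, limma-voom and limma-voom with quality weights also called 0 of the 35, where they called 44, 1 and 2 of all genes. Again 27 of the 35 had a fold change below 0, against 50.6% of all genes, with a median of -0.34 against -0.02. Without the low-detection libraries, 21 of 37 genes were below 0 with a median of -0.21, and without manual 2 alone 22 of 37 were, with a median of -0.18. The 3 smallest p-values belonged to MAN2B1, at -1.45 ± 0.77 (SE; 95% interval -3.05 to 0.16), CTSH, at -0.88 ± 0.55 (95% interval -2.03 to 0.28), and TPP1, at 1.79 ± 1.18 (95% interval -0.68 to 4.25), each with an adjusted p of 0.9997 in edgeR. CD63 was at -0.54 ± 0.39 (95% interval -1.36 to 0.27), where its automatic counterpart was at -1.13. Whether the cultured groups differ from each other is read from the direct comparison.

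**Figure D3:**
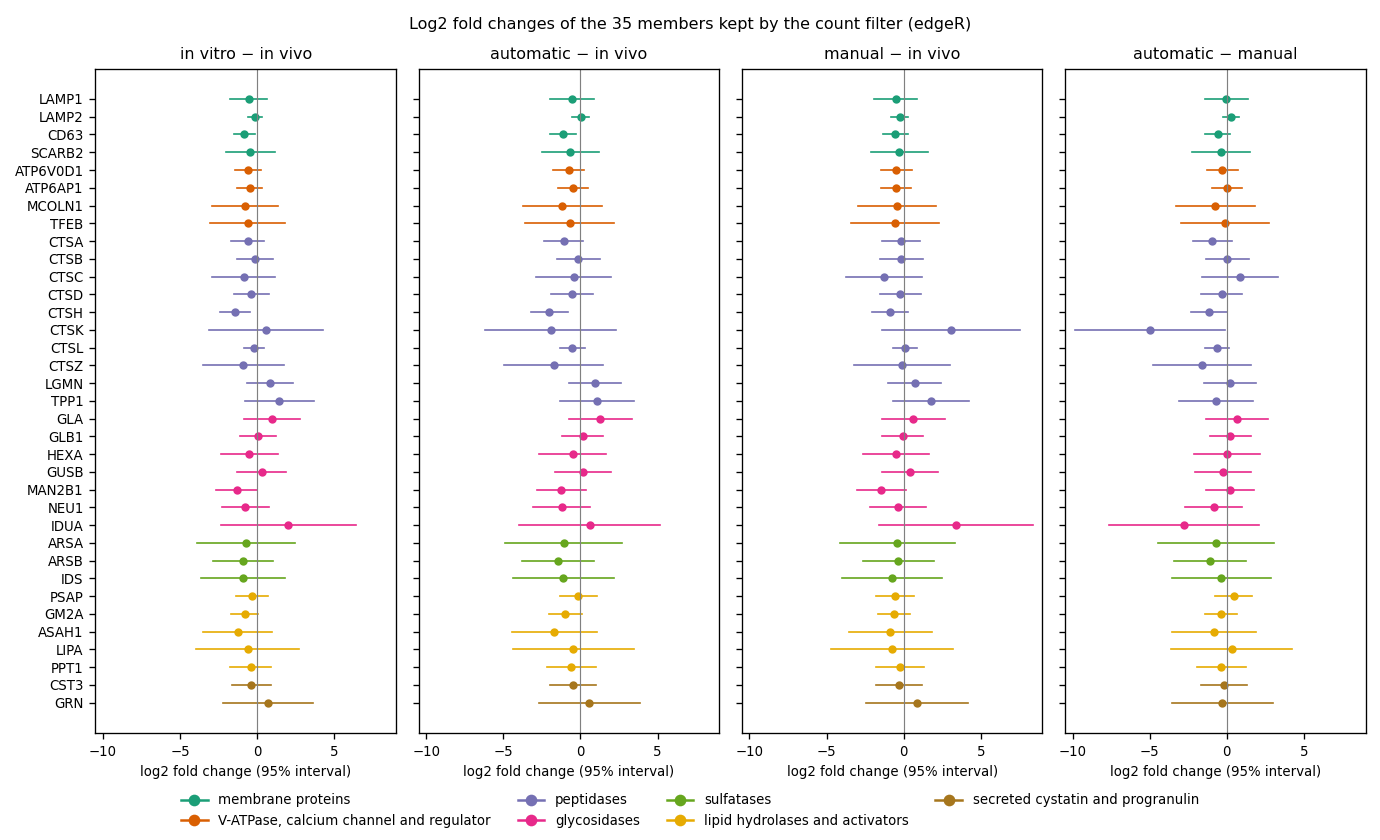
Log2 fold change with its 95% interval (edgeR) for the 35 tested genes, coloured by role, in culture against in vivo, automatic against in vivo, manual against in vivo and automatic against manual. Most points lie left of 0 in each panel, and intervals are narrow for LAMP2 and CTSL and wide for CTSK and IDUA.

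In automatic against manual, the comparison of denudation methods within culture, edgeR called 0 of the 35 genes and 0 of all genes (0%). DESeq2 and limma-voom called 0 of the 35 too, where they called 9 and 0 of all genes. Of the 35, 25 had a fold change below 0, against 52.9% of all genes, with a median of -0.34 against -0.05. This lean depended on the libraries and the weighting. Without manual 3, the library highest for most of these genes, the median was 0.015 and 18 of 37 genes were below 0. Without automatic 4, the lowest automatic library for most of them, 21 of 37 genes were below 0, with a median of -0.086 against -0.07 over all genes. Weighted by library quality in limma-voom, 16 of the 35 were below 0, with a median of 0.10. At an unadjusted p under 0.05, 1 gene was lower (0.881% of all genes) and 0 were higher (0.596%). No gene of the list had groups without overlap, against 0.527% of all genes lower and 0.138% higher. By role, the medians were -0.20 for the membrane proteins, -0.20 for the proton pump, channel and regulator, -0.67 for the peptidases, -0.01 for the glycosidases, -0.70 for the sulfatases, -0.36 for the lipid hydrolases and activators, and -0.23 for the secreted pair.

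That gene was CTSK, cathepsin K, which cleaves collagen and is best known from osteoclasts. It had 0, 0, 3.07, 0 and 0.484 CPM in automatic libraries 1 to 5, 46.9, 4.69, 59.3, 1.70 and 2.79 CPM in manual libraries 1 to 5, and 0, 12.9, 0.777, 0.0915 and 0 CPM in in vivo libraries 1 to 5. Manual 1 and manual 3 carried nearly all of the signal, with 1526 and 1875 counts, and every automatic library except automatic 3 was below the lowest manual value, 1.70 CPM. The log2 fold change of automatic against manual was -5.00 ± 2.32 (SE), with a 95% interval of -9.87 to -0.14 and an adjusted p of 0.9999 in edgeR. Because 3 automatic libraries had 0 counts, this size depends on the fit. In culture against in vivo, the fold change was 0.57 ± 1.75 (95% interval -3.11 to 4.24), and it was -0.66 without automatic 3 and 4.18 at the other end of the fits that left out 1 library. Markers of oviduct and uterine epithelium and stroma summed to 54.0 to 251 CPM in automatic, 40.1 to 527 CPM in manual and 17.9 to 45.3 CPM in in vivo libraries over 12 genes, with FOXJ1 under 1 CPM throughout. OVGP1, PGR and ESR1 reached at most 3.59, 3.84 and 1.91 CPM in any library, and PAX8 and SPP1 16.9 and 56.4 CPM. The largest values of the list were those of the stromal genes POSTN, LUM, COL1A2 and COL3A1, at up to 260, 131, 90.8 and 79.3 CPM. The 2 highest sums, 527 and 511 CPM, were those of manual 1 and manual 3. Automatic 2, with a sum of 251 CPM, had 0 counts of CTSK. In vivo 2, with 12.9 CPM of CTSK, had a sum of 45.3 CPM, the highest of the in vivo group. Of 6 such markers tested, 4 were below 0 in automatic against manual, with a median of -1.03, and all 6 were above 0 in culture against in vivo, with a median of 1.69. Their part in the CTSK values was not tested.

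CTSH was second by p between the cultured groups, at -1.14 ± 0.55 (SE; 95% interval -2.29 to 0.02; edgeR, adjusted p = 0.9999), and lay between -1.39 and -0.59 when any 1 library was left out. Trophectoderm markers were also lower in automatic than in manual libraries by value, with 11 of 13 below 0 and a median of -0.57, and their part in this was not tested. CTSL, cathepsin L, a broad endopeptidase, came next. It had 600.0, 462, 773, 566 and 667 CPM in automatic libraries, 621, 1144, 1206, 939 and 790.2 CPM in manual libraries, and 727, 472, 362, 1845 and 981 CPM in in vivo libraries. Manual libraries 2 to 5 lay above all automatic ones, while in vivo libraries spanned the range of both and beyond. Automatic against manual gave a log2 fold change of -0.62 ± 0.38 (SE; 95% interval -1.40 to 0.17; edgeR, adjusted p = 0.9999). For culture against in vivo it was -0.21 ± 0.32 (95% interval -0.88 to 0.46), within 2-fold in either direction. That value turned to 0.29 without in vivo 4 and to 0.17 without the low-detection libraries.

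Among the membrane proteins, LAMP2, a major glycoprotein of the lysosomal membrane that also takes part in chaperone-mediated autophagy, was similar in level in all 3 groups. Automatic libraries had 1116, 1127, 1377, 866 and 773 CPM, manual libraries 898, 829, 1141, 756 and 768 CPM, and in vivo libraries 1173, 1304, 826, 878 and 1063 CPM. The groups overlapped throughout, and the low-detection library in vivo 2 was the highest of its group. Its coefficient of variation was 22.7% in automatic, 17.9% in manual and 19.0% in in vivo libraries. Culture against in vivo gave a log2 fold change of -0.13 ± 0.22 (SE; 95% interval -0.59 to 0.33; edgeR, adjusted p = 0.9993), which turned to 0.078 with library sizes left unscaled. That of automatic against manual was 0.26 ± 0.26 (95% interval -0.27 to 0.79). Both intervals lay within 2-fold.

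LAMP1, its close relative, spread far more. It had 41.9, 129, 109, 73.7 and 58.6 CPM in automatic libraries, 100.3, 13.8, 214, 52.0 and 41.9 CPM in manual libraries and 118, 17.1, 86.9, 231 and 155 CPM in in vivo libraries. The lowest values were those of manual 2 and in vivo 2, both low-detection libraries, yet the highest belonged to a low-detection library as well, in vivo 4. Its log2 fold change of culture against in vivo was -0.54 ± 0.57 (SE; 95% interval -1.75 to 0.66). SCARB2, the receptor that carries beta-glucocerebrosidase to lysosomes, ranged from 21.3 to 156 CPM in automatic, 1.64 to 149 CPM in manual and 5.89 to 206 CPM in in vivo libraries, with a fold change of -0.46 ± 0.75 on the log2 scale for culture against in vivo. Once the low-detection libraries were dropped, SCARB2 was at -1.24 ± 0.49 (SE) in automatic against manual and was not called by edgeR.

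The aspartic protease CTSD, cathepsin D, had 608, 359.6, 1232, 258 and 288 CPM in automatic libraries, 1233, 106, 1579, 181 and 369 CPM in manual libraries and 1413, 298, 999.9, 435 and 855 CPM in in vivo libraries. Each group held a library at 1232 CPM or more and one at 298 CPM or less, so the groups overlapped over nearly their whole range. The log2 fold changes were -0.37 ± 0.55 (SE; 95% interval -1.53 to 0.78) for culture against in vivo and -0.34 ± 0.65 (95% interval -1.69 to 1.02) for automatic against manual.

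CTSB, cathepsin B, a cysteine protease with endo- and exopeptidase activity, had 390.0, 223, 348, 25.2 and 136 CPM in automatic libraries, 334, 32.5, 381, 153 and 202 CPM in manual libraries and 356, 48.1, 321, 305 and 200.2 CPM in in vivo libraries. In each group the lowest library was a low-detection one, automatic 4, manual 2 and in vivo 2, and the means of 225 ± 150.2, 221 ± 140.5 and 246 ± 125 CPM in automatic, manual and in vivo libraries differed by less than their SDs (n = 5 each). The log2 fold change of culture against in vivo was -0.15 ± 0.57 (SE; 95% interval -1.34 to 1.05), and 0.023 without in vivo 1.

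LGMN, legumain, which cuts after asparagine and matures several cathepsins, had 225, 6.62, 95.0, 37.1 and 67.6 CPM in automatic libraries, 121, 68.8, 86.1, 31.1 and 62.0 CPM in manual libraries and 92.3, 3.06, 67.8, 24.0 and 38.9 CPM in in vivo libraries. In each group library 1 was the highest, and the groups overlapped. Its log2 fold change of culture against in vivo was 0.82 ± 0.72 (SE; 95% interval -0.70 to 2.34). The remaining peptidases were CTSA, the protective protein of the sialidase and galactosidase complex, CTSC, an activator of granule proteases, and CTSZ, a carboxypeptidase. CTSA ranged from 18.8 to 416 CPM in automatic, 129 to 937 CPM in manual and 386 to 556 CPM in in vivo libraries, and its coefficient of variation of 15.7% in vivo was the lowest of the 35 genes in any group. CTSC ranged from 1.44 to 72.5 CPM in automatic, 0.0469 to 50.5 CPM in manual and 12.5 to 68.1 CPM in in vivo libraries. CTSZ had 0 counts in 1 library of each group and reached 81.4 CPM in automatic, 379.8 CPM in manual and 225 CPM in in vivo libraries. The log2 fold changes of culture against in vivo were -0.63 ± 0.51, -0.86 ± 0.98 and -0.92 ± 1.25 (SE) for CTSA, CTSC and CTSZ.

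**Figure D4:**
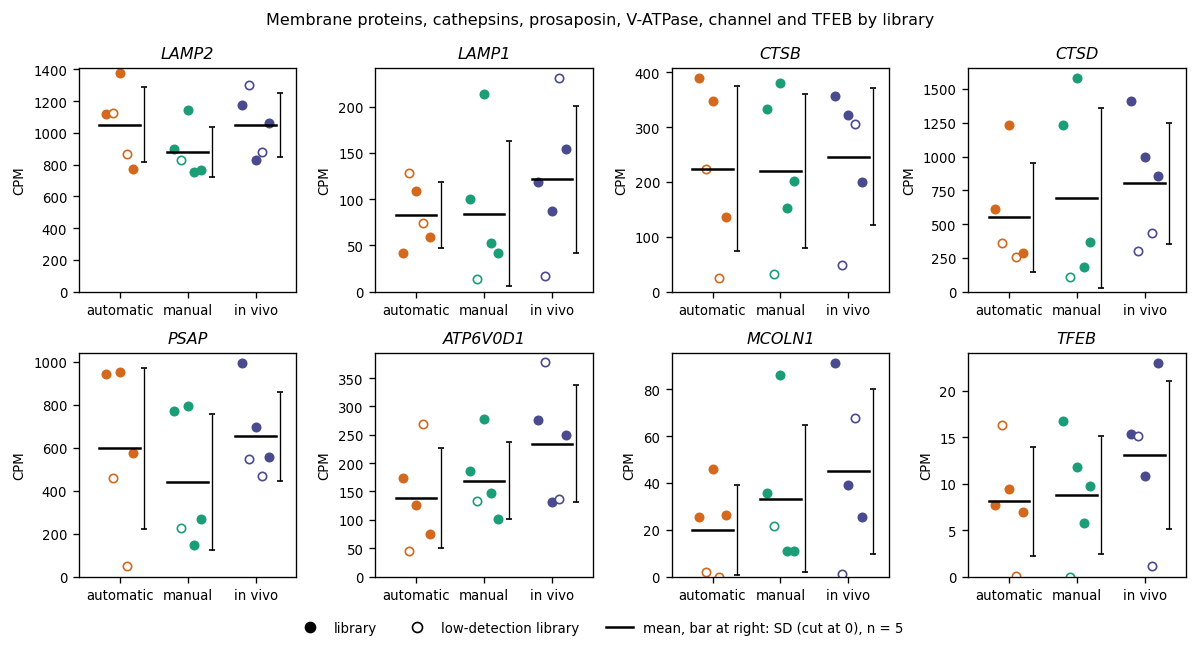
CPM of LAMP2, LAMP1, CTSB, CTSD, PSAP, ATP6V0D1, MCOLN1 and TFEB in each library of the automatic, manual and in vivo groups. Each point is a library, open points are low-detection libraries, the line is the mean and the bar the SD (n = 5, cut at 0). The groups overlap in every panel, and the spread is narrowest for LAMP2.

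The proton pump, channel and regulator genes all had negative fold changes whose intervals crossed 0. ATP6V0D1, a subunit of the membrane sector of the vacuolar ATPase, had 174, 45.6, 127, 269 and 75.5 CPM in automatic libraries, 185, 132, 278, 146 and 101 CPM in manual libraries and 277, 378, 131, 137 and 249 CPM in in vivo libraries. Low-detection libraries held both the lowest automatic value and the highest automatic and in vivo values. Culture against in vivo gave a log2 fold change of -0.62 ± 0.40 (SE; 95% interval -1.46 to 0.22; edgeR, adjusted p = 0.986). ATP6AP1, an accessory subunit of the same pump, had 323, 251, 433, 299 and 135 CPM in automatic libraries, 403, 216, 579.5, 93.5 and 133 CPM in manual libraries and 667, 447, 338, 292 and 268 CPM in in vivo libraries. Of the cultured libraries, 2 automatic and 3 manual ones lay below every in vivo library, and in vivo 1 was the highest of the 15. Its fold change was -0.49 ± 0.39 (SE; 95% interval -1.31 to 0.34) on the log2 scale.

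MCOLN1, which encodes the mucolipin channel that releases calcium from lysosomes, had 25.3, 1.91, 45.8, 0 and 26.5 CPM in automatic libraries, 35.8, 21.7, 86.3, 11.1 and 11.0 CPM in manual libraries and 91.1, 1.22, 39.1, 67.8 and 25.6 CPM in in vivo libraries. TFEB, the transcriptional regulator, had 7.72, 16.3, 9.43, 0.0553 and 6.89 CPM in automatic libraries, 16.8, 0, 11.8, 5.72 and 9.69 CPM in manual libraries and 15.4, 15.1, 10.8, 1.14 and 22.9 CPM in in vivo libraries. Both were at or near 0 in automatic 4, TFEB also in manual 2 and, at 1.14 CPM, low in in vivo 4, and MCOLN1 low in automatic 2 and in vivo 2. All of these are low-detection libraries, and the groups overlapped. The log2 fold changes of culture against in vivo were -0.81 ± 1.03 (SE; 95% interval -2.96 to 1.35) for MCOLN1 and -0.63 ± 1.16 (95% interval -3.06 to 1.80) for TFEB.

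PSAP, prosaposin, is the precursor of the saposins that help enzymes reach sphingolipids. It had 943, 458, 955, 50.4 and 578 CPM in automatic libraries, 773, 225, 797, 145 and 268 CPM in manual libraries and 996, 546, 698, 469 and 556 CPM in in vivo libraries. The in vivo libraries stood within a narrower range than the cultured ones, of which 5 lay below all of them. The log2 fold changes were -0.35 ± 0.49 (SE; 95% interval -1.38 to 0.69) for culture against in vivo and 0.43 ± 0.58 (95% interval -0.78 to 1.65) for automatic against manual. ASAH1, the acid ceramidase, ranged from 0 to 45.1 CPM in automatic, 0.797 to 70.6 CPM in manual and 0.306 to 195 CPM in in vivo libraries. LIPA, the acid lipase that releases cholesterol from its esters, was at most 17.7 CPM in automatic, 19.9 CPM in manual and 20.5 CPM in in vivo libraries, and had 0 counts in at least 1 library of each group. PPT1, which removes palmitate from proteins, ranged from 16.1 to 183 CPM in automatic, 73.1 to 168 CPM in manual and 4.13 to 261 CPM in in vivo libraries. Their log2 fold changes of culture against in vivo were -1.28 ± 1.08, -0.62 ± 1.59 and -0.42 ± 0.64 (SE) for ASAH1, LIPA and PPT1.

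Of the glycosidases other than MAN2B1, GLB1, the beta-galactosidase, was close between groups in its mean level, at 142 ± 34.4 CPM in automatic, 121 ± 117 CPM in manual and 127 ± 78.5 CPM in in vivo libraries (SD, n = 5 each), with a log2 fold change of 0.05 ± 0.55 (SE; 95% interval -1.11 to 1.20) for culture against in vivo. GLA, the alpha-galactosidase, ranged from 12.0 to 435 CPM in automatic, 31.3 to 249 CPM in manual and 0.230 to 186 CPM in in vivo libraries, and GUSB, the beta-glucuronidase, from 0.332 to 104 CPM, 13.5 to 130.0 CPM and 25.2 to 130.1 CPM in the same groups. The groups overlapped for both, and culture against in vivo gave log2 fold changes of 0.96 ± 0.87 for GLA and 0.29 ± 0.76 for GUSB (SE). HEXA, the alpha subunit of beta-hexosaminidase, ranged from 0 to 181 CPM in automatic, 6.75 to 241 CPM in manual and 59.4 to 225 CPM in in vivo libraries, and NEU1, the lysosomal sialidase, from 0.664 to 56.7 CPM, 14.6 to 167 CPM and 18.8 to 159 CPM in the same groups. Their fold changes were -0.51 ± 0.87 and -0.77 ± 0.73 (SE) on the log2 scale. IDUA, the alpha-iduronidase that degrades dermatan and heparan sulfate, was among the least detected, with 0 counts in 4 automatic, 2 manual and 2 in vivo libraries. Its largest value was 2.38 CPM in automatic, 11.2 CPM in manual and 1.21 CPM in in vivo libraries, and its fold change of 2.01 ± 2.09 (SE) on the log2 scale had a 95% interval from -2.37 to 6.38.

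The 3 sulfatases were low and uneven. ARSA, which removes sulfate from sulfatide, was at most 41.3 CPM in automatic, 55.5 CPM in manual and 59.4 CPM in in vivo libraries, with 0 counts in at least 1 library of each group. ARSB, which acts on dermatan sulfate, ranged from 0.273 to 15.5 CPM in automatic, 2.39 to 66.6 CPM in manual and 1.45 to 68.4 CPM in in vivo libraries. IDS, the iduronate sulfatase, was at most 7.66 CPM in automatic, 15.3 CPM in manual and 20.7 CPM in in vivo libraries. Culture against in vivo gave log2 fold changes of -0.75 ± 1.51, -0.91 ± 0.92 and -0.93 ± 1.29 (SE) for ARSA, ARSB and IDS, and none of the 3 intervals lay within 4-fold.

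CST3, cystatin C, a secreted inhibitor of cysteine cathepsins, had 46.8, 145, 95.9, 71.1 and 54.4 CPM in automatic libraries, 96.7, 80.1, 145, 81.8 and 62.5 CPM in manual libraries and 172, 1.30, 155, 119.7 and 127 CPM in in vivo libraries. In vivo 2 was nearly without it, while the other 4 in vivo libraries lay above 8 of the 10 cultured ones. With all libraries, the log2 fold change of culture against in vivo was -0.39 ± 0.60 (SE; 95% interval -1.65 to 0.87), and -0.93 ± 0.32 once the low-detection libraries were dropped (edgeR, adjusted p = 0.482). GRN, progranulin, which is cleaved to granulins in the lysosome, had 12.8, 25.9, 34.9, 0.664 and 14.5 CPM in automatic libraries, 51.1, 0, 50.1, 5.69 and 2.21 CPM in manual libraries and 13.3, 0, 17.5, 0.457 and 28.7 CPM in in vivo libraries. It was at or near 0 in 4 of the 5 low-detection libraries, and automatic 2 was the exception. Its log2 fold change of culture against in vivo was 0.71 ± 1.39 (SE; 95% interval -2.21 to 3.63).

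The width of these intervals sets what could be seen. Of the 35 genes, 15 had a 95% interval within 4-fold in either direction for culture against in vivo (42.9%, against 26.8% of all genes tested), and 2 within 2-fold, LAMP2 and CTSL. For automatic against manual it was also 15 (against 24% of all genes), with LAMP2 and ATP6AP1 within 2-fold. It was 12 for automatic against in vivo (20.1% of all genes) and 14 for manual against in vivo (21.8%). For the other genes, a change of more than 4-fold was not excluded by the interval in at least 1 direction. Dropping the low-detection libraries left 27 of 37 genes below 0 in culture against in vivo, with a median of -0.43 against -0.01 over all genes, and edgeR called none of them. CTSH, MAN2B1, CST3 and CD63 were then lower at an unadjusted p under 0.05, and CTSK was higher, at 4.44 ± 2.02 (SE; adjusted p = 0.591). Over all genes, 8.33% were then under that threshold in either direction.

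Other genes of the lysosomal pathway were read in 7 further lists with 165 symbols in the table, and edgeR called none of them in culture against in vivo or in automatic against manual. Of 33 other hydrolases and activators tested, 21 lay below 0 in culture against in vivo (median -0.22, 0 lower and 1 higher at an unadjusted p under 0.05). At that threshold, 3.67% of all genes were lower and 2.46% higher. Of 26 genes of mannose 6-phosphate tagging and sorting, 21 lay below 0 (median -0.33, 0 and 0). Of 27 other membrane proteins, 13 did (median 0.03, 2 lower and 1 higher), of 19 other V-ATPase subunits 7 (median 0.10, 0 lower and 2 higher), and of 20 genes of the TFEB family, Ragulator, the Rag GTPases and mTORC1 11 (median -0.07, 2 lower and 0 higher). Autophagy had 12 of 25 below 0 (median 0.03, 1 and 1), and cystatins and other protease inhibitors 3 of 5 (median -0.19, 0 and 0). In automatic against manual, the medians of these lists were -0.02 for hydrolases, 0.05 for sorting, -0.38 for membrane proteins, 0.02 for V-ATPase subunits, -0.01 for the TFEB and mTORC1 list, 0.18 for autophagy and -0.79 for inhibitors.

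CTSV, cathepsin V, is the hydrolase of these lists with the smallest p. It had 3453, 3858, 2570.1, 3823 and 3077 CPM in automatic libraries, 3472, 5240.0, 2787, 2876 and 2996 CPM in manual libraries and 2186, 2279, 1535, 2434 and 2392 CPM in in vivo libraries. All 10 cultured libraries lay above all 5 in vivo libraries, as for 0.199% of all genes, and the opposite of the side on which CTSH lay. The log2 fold change of culture against in vivo was 0.66 ± 0.22 (SE; edgeR, adjusted p = 0.553). CTSV and CTSL are close paralogs. How the estimation of counts treated reads that both may share is not known here, so the level of each is less certain. SQSTM1, the autophagy receptor p62, had 473, 554, 500.4, 251 and 531 CPM in automatic libraries, 561, 384, 480.2, 229.6 and 237 CPM in manual libraries and 318, 163, 205, 97.3 and 106 CPM in in vivo libraries. Of the cultured libraries, 7 lay above every in vivo one, and the log2 fold change was 1.23 ± 0.35 (SE; edgeR, adjusted p = 0.500).

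CTNS, the cystine exporter of the lysosomal membrane, had 19.8, 3.23, 74.1, 16.9 and 16.3 CPM in automatic libraries, 78.8, 57.7, 89.9, 50.8 and 80.2 CPM in manual libraries and 304, 45.4, 114, 117 and 146 CPM in in vivo libraries. Of the automatic libraries, 4 lay below every manual and every in vivo library, and the log2 fold change of culture against in vivo was -1.75 ± 0.55 (SE; edgeR, adjusted p = 0.553). ATP6V1C2, a V-ATPase subunit isoform, was at 11.7 to 162 CPM in automatic, 4.12 to 26.7 CPM in manual and 0 to 9.90 CPM in in vivo libraries. Its highest value was that of the low-detection library automatic 4, and automatic 5 followed at 67.6 CPM. Its log2 fold change of culture against in vivo was 3.11 ± 1.21 (SE; edgeR, adjusted p = 0.697). RRAGD, a Rag GTPase of the nutrient sensing complex, reached 3.20 CPM in automatic, 0.849 CPM in manual and 60.9 CPM in in vivo libraries, and its value of -4.99 ± 1.67 (SE; edgeR, adjusted p = 0.553) was -3.03 without in vivo 4. Between the cultured groups, SLC11A2, an iron transporter of endosomes, was at 21.8 to 151 CPM in automatic and 90.3 to 421 CPM in manual libraries, with a log2 fold change of -1.22 ± 0.50. RRAGA, another Rag GTPase, was at 90.0 to 316 CPM in automatic and 40.7 to 119 CPM in manual libraries, with a log2 fold change of 1.16 ± 0.45. Each had an adjusted p of 0.9999 in edgeR.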

How the data were processed

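Poly(A) RNA of day 7 bovine blastocysts was sequenced in 15 libraries, 5 per group, with a stranded kit and adaptors carrying molecular identifiers, per the labels' protocols. The authors deposited 1 table with an estimated count per gene and library, unscaled. The submitters' processing notes name FastQC, fastp and kallisto, with neither version nor role. Which transcript set and genome build served, and whether molecular identifiers were used, is not given in the sources used here. Hence no coordinates, sequences or levels per length are given, and levels of different genes are not compared. Of 17259 genes, 17059 matched a symbol of the RefSeq annotation of ARS-UCD2.0, and 37 of 37 listed genes did. A nameless line held 0 values and was not used. Within groups, every pair of libraries differed by more than sampling noise (smallest chi-square per degree of freedom 184).

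Rounding changed no value. Tests were made in R 4.3.3 with edgeR 4.0.16 (TMM, filterByExpr keeping 11578 genes, robust quasi-likelihood F test), in 1 fit over 15 libraries with a mean per group. Adjusted p-values are Benjamini-Hochberg over all genes kept, with a threshold of 0.05. Standard errors were taken as |log2 fold change| / sqrt(F), and 95% intervals use the test's degrees of freedom. The code of the fit was run on simulated counts. Recovery of changed genes was required only at a spread fixed in advance, not at the spread fitted here. That run checks the code and not its power on libraries as scattered as these. Alternatives were RLE factors, unscaled library sizes, no count filter, at least 1 CPM in 5 libraries, DESeq2 1.42.0, limma-voom (limma 3.58.1) with and without quality weights, the groups of a contrast alone, a replicate block, each library left out, the 5 libraries with under 9000 genes at 10 counts left out, and a covariate for how many genes were detected. Genes and lists were chosen with earlier results of these data known. Values per library are given for the 3 genes with the smallest p in each comparison and for 13 further genes (LAMP1, LAMP2, CTSD, CTSB, CTSL, LGMN, PSAP, GRN, TFEB, MCOLN1, ATP6V0D1, ATP6AP1, CST3). From each further list, the genes with the smallest unadjusted p under 0.05 are given by library, by range or by largest value. CTSS and GAA are given because they failed the filter.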

Additional observations from a re-analysis of the deposited data

Results flagged for a closer look

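Single libraries that stood apart from the other 4 of their group were sought with Dixon's test (critical value 0.71) in 135 groups of 5 values, for the 37 lysosomal genes, their sum and the genes named above from the further pathway lists. It marked 18. The critical value marks about 1 in 20 groups of normally distributed values, which CPM values with many at or near 0 are not. Where the other 4 libraries are at 0, the ratio is 1 whatever the fifth value. The number marked therefore cannot be set against that rate.

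Of the 37 genes, 6 were marked. For CTSK, automatic 3 had 3.07 CPM against 0 to 0.484 CPM in the other automatic libraries, and in vivo 2, a low-detection library, had 12.9 CPM against 0 to 0.777 CPM in the other in vivo libraries. SCARB2 stood at 156 CPM in automatic 4, a low-detection library (others 21.3 to 56.1 CPM), and ARSB at 66.6 CPM in manual 3 (others 2.39 to 20.3 CPM). IDUA stood at 2.38 CPM in automatic 1 (others 0), at 11.2 CPM in manual 3 (others 0 to 2.79 CPM) and at 1.21 CPM in in vivo 5 (others 0 to 0.245 CPM). CTSS stood at 2.30 CPM in automatic 3 (others 0 to 0.188 CPM) and at 1.31 CPM in in vivo 3 (others 0), and GAA at 3.04 CPM in manual 1 and 5.17 CPM in in vivo 3 (others 0 in both groups).

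Among the further pathway genes, CTNS stood at 74.1 CPM in automatic 3 (others 3.23 to 19.8 CPM), RRAGA at 316 CPM in automatic 4 (others 90.0 to 127 CPM), and SQSTM1 at 251 CPM in automatic 4 (others 473 to 554 CPM). CTSV stood at 5240.0 CPM in manual 2 (others 2787 to 3472 CPM) and at 1535 CPM in in vivo 3 (others 2186 to 2434 CPM). RRAGD stood at 3.20 CPM in automatic 5 (others 0 to 0.875 CPM) and at 60.9 CPM in in vivo 4 (others 0 to 5.90 CPM).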

How the results depend on the processing

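Counts of calls over all genes depended on the method. For culture against in vivo, where edgeR called 2 genes, the count was 0 with unscaled library sizes, 87 with DESeq2, 15 with limma-voom, 106 with quality weights, 7 without the low-detection libraries, 7 with detected genes as covariate and 0 to 7 with 1 library left out (7 without manual 3). For automatic against in vivo, also 2, it was 0 with unscaled library sizes, 1 without a count filter, 1 with only the 2 groups, 87 with DESeq2, 9 with limma-voom, 94 with quality weights, 9 without the low-detection libraries and 0 to 4 with 1 library left out (4 without manual 3). For manual against in vivo, 0 in edgeR, it was 44, 1, 2 and 3 with DESeq2, limma-voom, quality weights and the low-detection libraries left out, and for automatic against manual, also 0, it was 9, 0, 1 and 1. With 1 library left out both stayed at 0. Of the 35 genes, quality weights called 1, CTSH, in culture against in vivo and 1, CTSH, in automatic against in vivo (-1.91, adjusted p = 0.0211), and no other alternative called any. The median over the list ranged with 1 library left out from -0.65 to -0.33 for culture against in vivo, -0.74 to -0.42 for automatic against in vivo, -0.70 to -0.18 for manual against in vivo and -0.55 to 0.015 for automatic against manual, the last without manual 3. Quality weights gave 0.10 in the last of these comparisons. Single genes turned sign in culture against in vivo for LAMP2 (0.078, unscaled library sizes), CTSB (-0.39 to 0.023 with 1 library left out, the highest without in vivo 1), CTSL (0.11 with limma-voom, 0.21 with quality weights, 0.17 without the low-detection libraries, and -0.41 to 0.29 with 1 library left out, the highest without in vivo 4) and CTSK (-0.19 with detected genes as covariate, -0.66 to 4.18 with 1 library left out, the lowest without automatic 3). The cause of these shifts was not tested. Of 886 alternative values of 35 named fold changes, 878 kept their direction and 4 passed the threshold, all with quality weights (CTSH in both comparisons, CTSV at 0.65, CTNS at -1.88).

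The labels do not say that replicate numbers pair the libraries, so the block stands here as an alternative. Deviations from the group means correlated at 0.00137 to 0.380 over the 15 pairs with the same number (median 0.12, 8 over 0.1) and with a median of -0.03 over the 60 with different numbers (7 over 0.1), and 8 of 15 libraries correlated best with their own number, a hint from the data, not the design. With a replicate block, edgeR called 8 genes in culture against in vivo, 7 in automatic against in vivo, 1 in manual against in vivo and 0 in automatic against manual, and 0 of the 35 genes in each. At an unadjusted p under 0.05, it had 4 of the 35 lower in manual against in vivo (CTSC, PSAP, GM2A and CTSH), against 0 without the block. Over all genes, 4.40% were under that threshold in either direction with the block.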
